A study of Mus musculus with 24 samples.

Results

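The question addressed here was whether ischemic injury changed gene expression in kidney proximal tubules of male mice differently from those of female mice. For each gene the injury change in males (injured minus sham) was set against the injury change in females, and the difference between both changes, male minus female, was tested. A value above 0 means that the change in males lay above that in females, and a value below 0 that it lay below. The comparison used the 12 tubule samples of the 23 samples in the series, 3 in each of 4 groups: sham females, injured females, sham males and injured males. They were chosen by cell type alone, with no measured value involved, and genes on chromosomes 1 to 19 are described. All mice were of the inbred strain FVB, no genetic alteration is named for any group, and age and the time between injury and sampling are not given in the sources used here. Tubules were collected by microdissection from enzymatically digested kidneys, with RNA of 3 mice of each sex under each condition, and replicates were accordingly treated as separate mice. Sham male replicate 3 was sequenced as 2 libraries of 1 sample, which were added together. Expression is given in CPM (estimated counts scaled to a common library size and adjusted for composition), one value per library in the order of replicates 1, 2 and 3. Changes are on a log2 scale with their standard error (SE), and the adjusted p is from edgeR's quasi-likelihood test with Benjamini-Hochberg adjustment over all genes tested.

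As background, the proximal tubule reabsorbs most of the filtered solutes and protein, burns fatty acids to pay for this transport, and is the segment hit hardest when renal blood flow stops. Injured tubule cells lose transporters and switch on genes such as those of osteopontin and KIM-1, and female rodents are known to tolerate renal ischemia better than males. The mouse proximal tubule is also sexually dimorphic before any injury: androgens keep genes such as Odc1 and Kap high in males, while others, such as Prlr, are higher in females.

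One library stood apart and touches most values below. Injured male replicate 3 correlated with its group mates at a Pearson r of 0.927 and 0.935 across genes, while those mates correlated with each other at 0.976. It received the lowest quality weight of the 12 libraries in a limma fit that weighs libraries, 0.0726, the next lowest being 0.330 for sham male replicate 3. Its mean level of 24 tubular injury genes was 2.11 above the mean of all libraries on the log2 scale, against 2.83 and 2.85 in injured male replicates 1 and 2, and that of 20 p53 target genes was -0.07, against 1.63 and 1.497. The counts of called members on each list are therefore given with and without it. In the sample titles, replicate 3 of the injured males, injured females and sham males bears the numbers 7, 8 and 9. Their group mates bear the numbers 1 to 6, and all sham females bear higher numbers than any of these. The numbers of the sham females therefore cannot be told apart from the group itself. Whether the numbers mark separate batches is not given in the sources used here. The libraries held 32592517 to 47176088 estimated reads, and in sham male replicate 3 a single gene, CT010467.1, took 8.53% of them. The label of proximal tubule was met in each group: Lrp2, encoding the endocytic receptor megalin, lay between 681 and 4051 CPM, and Slc34a1, encoding the phosphate transporter of this segment, between 1754 and 6276 CPM. The thick ascending limb gene Umod was also abundant, at 731 to 5106 CPM, so transcripts of another segment were present in every library.

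Of 17743 autosomal genes tested, 153 (0.862%) differed between the sexes in their injury response: 68 (0.383%) with a difference above 0 and 85 (0.479%) below 0. They comprised 138 protein-coding genes and 15 of other types, and the sizes of their differences ran from 0.73 to 10.20 on the log2 scale. The largest belongs to Gvin1, which had no read in the sham females, so its fitted size is not a measured one. The change on the male side carried most of the difference. All 68 positive genes rose after injury in males, against 10.7% of all genes, with a median log2 change of 1.96 in males and -0.02 in females. Among the 85 negative genes, 69 fell in males, against 8.49% of all genes, with a median log2 change of -1.33 in males and 0.45 in females. In females 2 genes rose, Casr and Mecom (0.0113% of all genes), and both are among the negative 85. Since these genes were chosen by the difference between both changes, the counts within each sex describe them and add no support. Over all tested autosomal genes the median size of the injury change, without its sign, was 0.57 on the log2 scale in males (0.77 without injured male replicate 3) and 0.26 in females, and the male and female changes correlated across genes at a Pearson r of 0.19. Genes are not independent replicates, so this correlation is a description of these 4 groups, which share no library between the sexes.

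**Figure D1:**
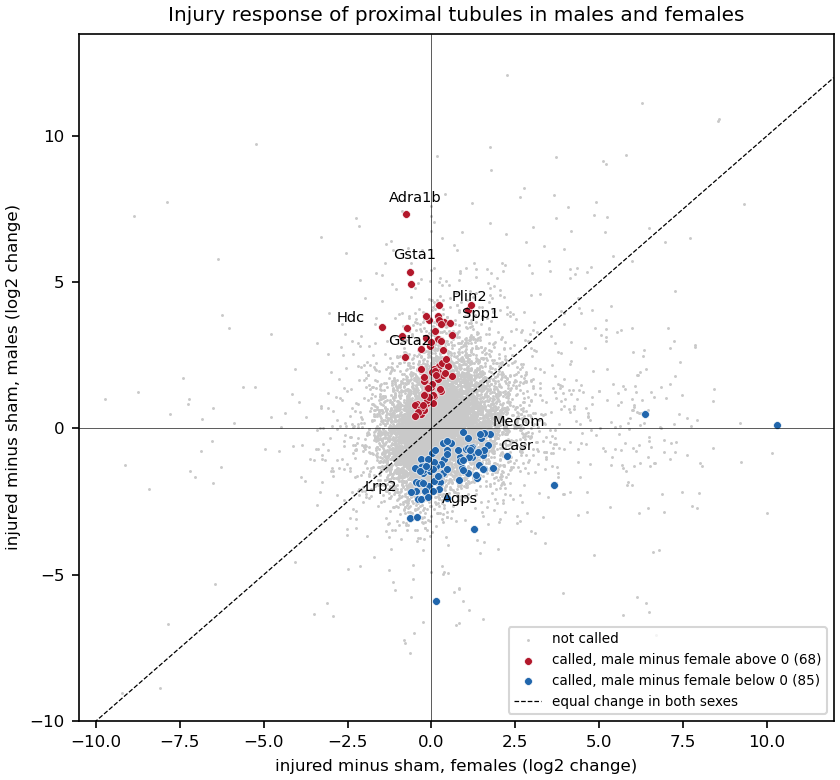
Each point is 1 autosomal gene, with its log2 injury change in females on the horizontal axis and in males on the vertical axis. Colored points are the 68 genes with a male minus female difference above 0 and the 85 below 0, and the dashed line marks equal change in both sexes. The red points lie at a median of 1.96 in males and -0.02 in females, and the blue ones at -1.33 and 0.45.

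The number of genes called depended on single libraries. Without injured male replicate 3, 5712 of 18652 genes were called (30.6%), 2471 (13.2%) above 0 and 3241 (17.4%) below, and they included all 153. For each of these 153, which were chosen with that library in, the log2 difference without it was 0.871 to 1.28 times that with it. Leaving out the 3 samples numbered 7, 8 and 9 together was an alternative chosen after seeing the data. It called 5638 of 18313 genes (30.8%), again with all 153 among them. That fit kept every sham female, whose numbers are higher still. By DESeq2 4.78% of all genes were called above 0 and 3.24% below, and by limma with library weights 17.2% and 22.1%; these shares are the background for the list counts of each fit. Leaving out any of 10 other libraries lowered the count: to 31, 35 and 23 without sham female replicates 1, 2 and 3, to 22, 19 and 26 without injured female replicates 1, 2 and 3, to 25 and 35 without sham male replicates 1 and 2, and to 54 and 28 without injured male replicates 1 and 2. Without sham male replicate 3 the count was 215. At an unadjusted p under 0.05, 3540 of 17743 genes differed with all 12 libraries, 1804 above 0 and 1736 below. These 2 counts are the background for the list counts at that p.

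The called genes fell into few patterns of the 4 groups, taken here as the 3 libraries of one group lying beyond all 9 others. A gene can have such a pattern for 2 groups, one above and one below the rest, and then counts under both, as 61 called genes did (3.33% of all genes). Injured males stood above the other 9 libraries for 52 of the 68 positive genes, and 6.89% of all tested genes had that pattern. Sham males stood below the others for 29 of the 68 (1.88% of all genes), sham females above for 5 (3.80%), injured females below for 4 (1.11%) and sham females below for 2 (2.97%). Of the 85 negative genes, injured males stood below the rest for 44 (7.34% of all genes), sham males above for 30 (4.05%), injured females above for 26 (3.04%), sham females below for 11 (2.97%) and sham females above for 5 (3.80%). In 6 called genes no group stood apart (72.2% of all genes). The groups' order took part in choosing these genes, so the counts only sort them. The sections that follow take these patterns in turn.

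The genes highest in injured males included markers of tubular injury, regulators of the actin cytoskeleton, lysosomal proteases and a lipid droplet protein. Spp1 (chromosome 5, 104435118 to 104441050) encodes osteopontin, a secreted phosphoprotein. It stood at 1284, 1364 and 1095 CPM in sham females, 1817, 1877 and 1776 CPM in injured females, 311, 177 and 218 CPM in sham males, and 2278, 2762 and 3639 CPM in injured males. Sham females were thus already well above sham males, and injured males were above every other library. The injury change of Spp1 was 3.62 in males (adjusted p = 8.0e-05) and 0.55 in females (adjusted p = 0.349), and the difference was 3.08 ± 0.31 (adjusted p = 0.00328), or 2.87 without injured male replicate 3. After injury the sexes were therefore closer than before it. Mvp, which encodes the main protein of the vault particle, stood at 52.2, 52.8 and 45.3 CPM in sham females, 50.7, 58.4 and 52.4 CPM in injured females, 46.7, 49.8 and 44.5 CPM in sham males, and 197, 195 and 149.6 CPM in injured males. Its other 9 libraries overlapped, all far below injured males, and the difference was 1.84 ± 0.19 (adjusted p = 0.00328).

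Actin-binding and adhesion genes made up a further share of this pattern. Tagln2, encoding the actin-binding protein transgelin-2, stood at 232, 244 and 209 CPM in injured males, with all other libraries at 64.0 to 96.9 CPM (difference 1.67 ± 0.18, adjusted p = 0.00328). For Tgm2, encoding the protein cross-linking enzyme transglutaminase 2, injured males were at 662, 590.2 and 576 CPM and the 9 others at 206 to 306 CPM (difference 1.49 ± 0.17, adjusted p = 0.00341). Both genes showed no overlap of injured males with any other group. Rhoc, a small GTPase that acts on the cytoskeleton, stood at 52.1, 75.3 and 46.01 CPM in sham males and 284, 292 and 138 CPM in injured males, with females at 33.2 to 50.7 CPM in both states (difference 2.34 ± 0.38, adjusted p = 0.0264). Tpm4, a tropomyosin, stood at 279, 285 and 118 CPM in injured males and 33.5 to 56.3 CPM elsewhere (difference 1.96 ± 0.38, adjusted p = 0.0409). In both Rhoc and Tpm4 injured male replicate 3 was the lowest of its group, and without it the differences were 2.61 and 2.27. Rras, encoding another small GTPase, stood at 46.6, 47.9 and 41.4 CPM in injured males and 9.00 to 18.4 CPM in the other libraries (difference 1.65 ± 0.24, adjusted p = 0.0184). Of 27 tested genes on the list of actin remodeling and YAP targets, 3 were called above 0 (Tpm4, Tagln2 and Rhoc), beside 0.383% of all genes. The list's median difference was 0.58, beside -0.09 over all tested genes. Without injured male replicate 3, 11 of the 27 were called above 0 and 1 below, beside 13.2% and 17.4% of all genes.

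Lysosomal proteases and their inhibitor moved in the same direction. Ctsl (chromosome 13, 64359337 to 64370890), encoding cathepsin L, stood at 331, 339 and 319 CPM in sham females, 305, 303 and 268 CPM in injured females, 229, 244 and 216 CPM in sham males, and 3013, 2202 and 658 CPM in injured males. All injured males lay above the other libraries, but replicate 3 lay far below its mates. The difference was 3.26 ± 0.55 (adjusted p = 0.0273) with all libraries and 3.68 (adjusted p = 1.6e-06) without that one. Ctsb, encoding cathepsin B, stood at 420.1, 434 and 477 CPM in sham males and 998, 1031 and 1226 CPM in injured males, and at 671 to 929 CPM in females (difference 1.01 ± 0.18, adjusted p = 0.0321). Cstb, encoding cystatin B, which inhibits cysteine cathepsins, stood at 173, 223 and 141 CPM in injured males and 40.1 to 66.5 CPM in the rest (difference 1.93 ± 0.24, adjusted p = 0.00574). On the list of lysosome and autophagy genes 2 of 23 were called, Ctsb and Ctsl, both above 0 (0.383% of all genes), with a list median of 0.42. The count was 11 above 0 and 1 below without injured male replicate 3, beside 13.2% and 17.4% of all genes. Ctsz and Atg7, the next members by p, had differences of 0.56 ± 0.15 and 0.59 ± 0.18 (adjusted p = 0.0966 and 0.121).

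Plin2 (chromosome 4, 86648386 to 86670060), encoding the lipid droplet coat protein perilipin 2, had among the widest gaps between the sexes. It stood at 69.9, 103 and 86.4 CPM in sham females, 111, 102 and 88.4 CPM in injured females, 98.7, 93.6 and 84.1 CPM in sham males, and 2471, 2341 and 384 CPM in injured males. Females and sham males overlapped fully, and injured male replicates 1 and 2 were far above them, replicate 3 less so. Its difference was 4.02 ± 0.70 (adjusted p = 0.0331), and 4.49 without that library. Adra1b, encoding an alpha-1 adrenergic receptor, was at most 0.680 CPM in the other 9 libraries and at 11.5, 9.16 and 0.691 CPM in injured males, a fitted difference of 8.10 ± 1.50 (adjusted p = 0.0339). Replicate 3 of the injured males barely cleared the highest sham female, so the separation rests on replicates 1 and 2. Lrp8, encoding a lipoprotein receptor that also binds reelin, stood at 11.2, 15.1 and 4.36 CPM in injured males and 0.253 to 3.68 CPM in the others (difference 5.55 ± 1.03, adjusted p = 0.0339). Nek6, a kinase of mitosis, stood at 113, 98.4 and 42.3 CPM in injured males and 5.92 to 12.9 CPM in the rest (difference 3.47 ± 0.48, adjusted p = 0.0122). Steap1, of a family of metalloreductases, was at 2.31, 2.62 and 2.60 CPM in sham males, 6.24 to 9.50 CPM in females and 14.8, 26.5 and 18.6 CPM in injured males (difference 2.71 ± 0.32, adjusted p = 0.00470). The synaptotagmin gene Syt12 stood at 18.4, 17.5 and 19.99 CPM in injured males and 2.47 to 4.96 CPM elsewhere (difference 2.34 ± 0.35, adjusted p = 0.0184).

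**Figure D2:**
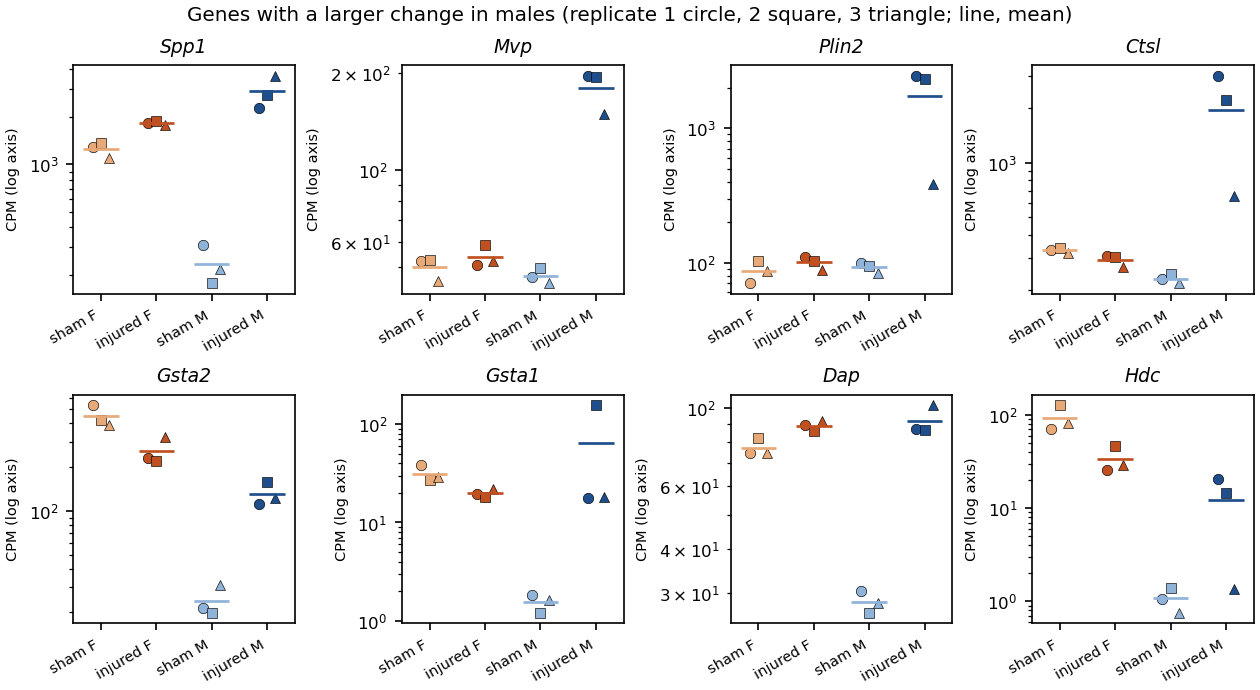
CPM per library on log axes for 8 genes with a difference above 0, by group, with replicates 1, 2 and 3 as circle, square and triangle and the group mean as a line. In the upper row injured males lie above all others, and for Plin2 and Ctsl replicate 3 (384 and 658 CPM) lies far below its mates; in the lower row sham males lie below the females.

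Common injury markers rose in males with a difference from females that did not pass. Havcr1, encoding KIM-1, stood at 1.73, 2.42 and 1.24 CPM in sham females, 7.55, 26.1 and 7.44 CPM in injured females, 5.19, 4.09 and 3.29 CPM in sham males, and 31.5, 277 and 304 CPM in injured males. Injured males were highest, but their replicate 1 was close to injured female replicate 2. The difference was 2.68 ± 1.02 (adjusted p = 0.182), and 2.28 (adjusted p = 0.138) without injured male replicate 3. Lcn2, encoding lipocalin 2, had injury changes of 7.29 in males (adjusted p = 0.00203) and 4.83 in females (adjusted p = 0.0931), and its difference was 2.46 ± 1.43 (adjusted p = 0.352). Of 24 tested tubular injury genes 2 were called above 0, Spp1 and Plin2 (0.383% of all genes). The list median was 2.40, with a median change of 3.55 in males and 1.36 in females. Leaving out injured male replicate 3, 12 of the 24 were called, all above 0, beside 13.2% of all genes. The fibrinogen genes Fgg and Fgb had differences of 3.07 ± 0.77 and 4.52 ± 1.11 (adjusted p = 0.0794 and 0.0764), and here replicate 3 was the highest of the injured males, at 859.9 CPM for Fgg and 277 CPM for Fgb. Without it the differences were smaller, 2.32 for Fgg and 2.65 for Fgb, but both were called (adjusted p = 0.0168 and 0.00511).

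The values of p53 targets turned on injured male replicate 3. Cdkn1a, encoding the cell cycle inhibitor p21, stood at 659.8, 589 and 23.4 CPM in injured males and 4.73 to 20.8 CPM in the other libraries. Replicate 3 was thus near the level of sham males, and the difference was 4.80 ± 1.26 (adjusted p = 0.0917) with it and 5.36 (adjusted p = 2.4e-04) without it. Trp53inp1, a stress-induced p53 target, stood at 617, 383 and 22.7 CPM in injured males and 17.9 to 23.9 CPM elsewhere (difference 3.95 ± 1.04, adjusted p = 0.0926, and 4.50, adjusted p = 3.1e-06, without replicate 3). Fas, encoding a death receptor, had a difference of 2.80 ± 0.62 (adjusted p = 0.0604), and Pmaip1, encoding the BH3-only protein Noxa, one of 1.75 ± 0.53 (adjusted p = 0.124). Of the 20 tested p53 targets edgeR called 0. At an unadjusted p under 0.05, 8 were above 0, beside 1804 of all 17743 genes. DESeq2 called 4 (4.78% of all genes) and limma with library weights 9 (17.2%), all above 0. The list median was 0.85, and without injured male replicate 3, 10 of the 20 were called, all above 0, beside 13.2% of all genes.

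Targets of NRF2, the transcription factor that answers oxidative stress, had 3 of 22 tested members called, all above 0 (0.383% of all genes): Srxn1, Gsta1 and Gsta2. Srxn1, encoding sulfiredoxin, which restores oxidized peroxiredoxins, stood at 145, 254 and 151 CPM in injured males and 46.6 to 75.0 CPM in the rest (difference 1.46 ± 0.28, adjusted p = 0.0380). Txnrd1, encoding thioredoxin reductase, stood at 421, 475 and 245 CPM in injured males and 132 to 177 CPM elsewhere, a difference of 1.29 ± 0.28 (adjusted p = 0.0605). That of the ferritin heavy chain gene Fth1 was 0.67 ± 0.16 (adjusted p = 0.0746) and that of Hmox1, encoding heme oxygenase 1, 2.06 ± 0.52 (adjusted p = 0.0794). The list's median difference was 0.75, and without injured male replicate 3 the count was 10 above 0 and 2 below (13.2% and 17.4% of all genes). Both Gsta genes of this list follow another pattern of groups, described next.

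Gsta1 and Gsta2, glutathione transferases of the alpha class, were low in sham males and rose there after injury, while the fitted change in females was negative and did not pass. These enzymes couple glutathione to electrophiles and drugs, and several are known NRF2 targets. The other 2 alpha class genes on the lists were not called: Gsta3 had a difference of 0.64 ± 0.35 (adjusted p = 0.330) and Gsta4 one of 0.86 ± 0.56 (adjusted p = 0.404). Gsta2 (chromosome 9, 78331018 to 78355788) stood at 537, 424 and 389 CPM in sham females, 231, 219.7 and 323 CPM in injured females, 21.5, 19.9 and 30.9 CPM in sham males, and 111, 158 and 123 CPM in injured males. Sham males were lowest, females highest, and injured males lay between them without reaching the lowest female. Its injury change was 2.43 in males (adjusted p = 2.9e-04) and -0.80 in females (adjusted p = 0.168), giving a difference of 3.24 ± 0.32 (adjusted p = 0.00328). Gsta1 (chromosome 9, 78230656 to 78242684) stood at 37.9, 26.7 and 28.8 CPM in sham females, 19.3, 18.3 and 21.999 CPM in injured females, 1.83, 1.21 and 1.64 CPM in sham males, and 17.9, 156 and 18.3 CPM in injured males. A single library, injured male replicate 2, was far above its mates, and the difference was 6.01 ± 1.02 (adjusted p = 0.0279). Gm10639 (chromosome 9, 78289923 to 78305525), a protein-coding gene of the same cluster on chromosome 9, was named after its values were seen: it stood at 3.18, 1.57 and 3.13 CPM in sham males and 17.9997, 49.1 and 17.3 CPM in injured males, with females at 31.6 to 85.0 CPM (difference 4.16 ± 0.64, adjusted p = 0.0207). The genes of this cluster are near copies, so how reads were split among them is uncertain.

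The 250 bases before the RefSeq start of Gsta1, Gm10639 and Gsta2 are shown because these 3 genes were all called above 0; they come from RefSeq (GRCm38.p6), 5′ to 3′ on each gene's own strand. The RefSeq start is not that of the gene positions given above, which are from GENCODE: it lies 13 bases inside the GENCODE gene for Gsta1, 5 bases for Gm10639 and 8643 bases for Gsta2, so the window of Gsta2 lies within its GENCODE gene. Gsta1 is at chr9:78230419-78230668 on the plus strand, Gm10639 at chr9:78289678-78289927 on the plus strand and Gsta2 at chr9:78347146-78347395 on the minus strand. Capitals mark the longest run that all 3 share, of 18 bases.
Gsta1: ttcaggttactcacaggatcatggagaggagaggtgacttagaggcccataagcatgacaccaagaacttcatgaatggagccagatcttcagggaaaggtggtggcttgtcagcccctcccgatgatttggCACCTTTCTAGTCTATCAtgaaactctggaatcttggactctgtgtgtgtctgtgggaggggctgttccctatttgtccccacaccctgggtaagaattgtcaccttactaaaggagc
Gm10639: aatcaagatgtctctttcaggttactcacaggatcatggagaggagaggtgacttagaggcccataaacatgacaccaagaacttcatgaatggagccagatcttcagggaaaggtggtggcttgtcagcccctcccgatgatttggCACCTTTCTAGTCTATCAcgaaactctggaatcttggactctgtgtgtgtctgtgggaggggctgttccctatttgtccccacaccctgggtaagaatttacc
Gsta2: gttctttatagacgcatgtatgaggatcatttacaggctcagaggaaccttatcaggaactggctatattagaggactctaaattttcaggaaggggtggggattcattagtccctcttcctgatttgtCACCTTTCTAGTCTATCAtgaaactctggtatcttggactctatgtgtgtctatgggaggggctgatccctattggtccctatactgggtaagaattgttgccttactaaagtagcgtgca
Aligned over their length, Gsta1 and Gm10639 were identical at 87.9% of alignment columns, Gsta1 and Gsta2 at 71.4%, and Gsta2 and Gm10639 at 64.5%. The core of the antioxidant response element, TGACNNNGC, searched on both strands, has no match in these 3 windows. Over the same 250 bases before the start, 10.2% of all 32851 RefSeq promoters hold it. So do 8 of 57 promoters of the positive genes and 10 of 83 of the negative genes. A match or its absence in such a window is a description of letters only.

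Other conjugating enzymes and surface proteins shared the low level of sham males. Gsto1, a glutathione transferase of the omega class, stood at 52.9, 49.97 and 48.9 CPM in sham females, 36.97, 40.97 and 44.4 CPM in injured females, 7.93, 4.78 and 9.43 CPM in sham males, and 27.3, 44.7 and 18.6 CPM in injured males. Sham males were lowest by a wide margin, and injured males reached the female range in 1 library (difference 2.34 ± 0.42, adjusted p = 0.0337). The mu class gene Gstm5 was instead highest in injured males, at 464, 459 and 191 CPM against 93.6 to 172 CPM elsewhere (difference 1.91 ± 0.37, adjusted p = 0.0409). In the list of glucuronosyl and glutathione transferases these 4 of 30 were called, all above 0 (0.383% of all genes), with a list median of 0.38. Omitting injured male replicate 3, 6 were called above 0 and 2 below (13.2% and 17.4% of all genes). Dap, encoding death-associated protein, stood at 74.7, 81.95 and 74.3 CPM in sham females, 89.02, 85.7 and 91.9 CPM in injured females, 30.4, 26.5 and 28.1 CPM in sham males, and 87.04, 86.7 and 102 CPM in injured males. Its sham males lay far below every other library, and injured males overlapped with females (difference 1.49 ± 0.16, adjusted p = 0.00328). Itga6, encoding an integrin subunit that binds laminin, stood at 75.6, 81.4 and 89.1 CPM in sham males, 247, 222 and 167 CPM in injured males and 143 to 186 CPM in females (difference 1.49 ± 0.22, adjusted p = 0.0180). Slc3a2, encoding the heavy chain that carries several amino acid transporters to the membrane, stood at 176, 179 and 224 CPM in sham males and 368, 332 and 307 CPM in injured males, with females at 329 to 440.3 CPM (difference 1.04 ± 0.18, adjusted p = 0.0332). Of all 68 positive genes 18 were lower in sham males than in sham females and 1 was higher, against 2.43% and 3.24% of all tested genes; the sham groups are part of the contrast, so these counts only describe the genes.

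Among the genes lowest in injured males were transporters and metabolic enzymes of the proximal tubule. Lrp2 (chromosome 2, 69424340 to 69586065), encoding megalin, which takes up filtered protein, stood at 3028, 2609 and 2572 CPM in sham females, 2211, 1935 and 2791 CPM in injured females, 2941, 3208 and 4051 CPM in sham males, and 913, 681 and 1225 CPM in injured males. Injured males lay below all others, which overlapped among themselves. The difference was -1.61 ± 0.31 (adjusted p = 0.0381), and -1.85 without injured male replicate 3. Its partner Cubn, encoding cubilin, had a difference of -1.20 ± 0.28 (adjusted p = 0.0651). Lrp2 was the single one of 30 tested proximal tubule markers that was called, below 0 (0.479% of all genes). The list median was -0.34, with medians of -0.69 in males and -0.36 in females. Without injured male replicate 3, 2 markers were called above 0 and 9 below, beside 13.2% and 17.4% of all genes. In bulk tubules a smaller share of proximal cells and less of a transcript per cell cannot be told apart.

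Several enzymes of this pattern handle fatty acids, methyl groups or sulfate. Pecr, encoding a peroxisomal enoyl-CoA reductase, stood at 294, 303 and 294 CPM in sham females, 227, 249 and 243 CPM in injured females, 505, 517 and 483 CPM in sham males, and 209, 199 and 192 CPM in injured males. Sham males were highest and injured males lowest, with no overlap of either with the females (difference -1.02 ± 0.14, adjusted p = 0.0122). Tpmt, encoding thiopurine methyltransferase, stood at 45.1, 46.1 and 52.2 CPM in injured males and 78.0 to 119.5 CPM elsewhere (difference -1.12 ± 0.15, adjusted p = 0.0122). Gal3st1, encoding the sulfotransferase that makes sulfatide, stood at 21.7, 25.3 and 26.2 CPM in injured females, 7.59, 6.35 and 9.59 CPM in injured males and 10.0 to 12.6 CPM in both sham groups (difference -1.82 ± 0.25, adjusted p = 0.0114). Injured males and injured females thus lay on opposite sides of the shams. Hsd3b4, of the hydroxysteroid dehydrogenase family, stood at 301, 343 and 353 CPM in sham females and 221, 245 and 191 CPM in injured females. Sham males were at 188, 157 and 146 CPM and injured males at 34.5, 30.4 and 42.5 CPM. The difference was -1.59 ± 0.22 (adjusted p = 0.0138). Near copies of Hsd3b4 lie beside it on chromosome 3, so its own share of reads is uncertain. Of 28 tested fatty acid oxidation genes edgeR called 0. At an unadjusted p under 0.05, 2 were above 0 and 3 below, beside 1804 and 1736 of all 17743 genes. DESeq2 called 1 above 0 (4.78% of all genes), and limma with library weights 3 above and 11 below (17.2% and 22.1%). With injured male replicate 3 left out, 2 were called above 0 and 11 below, beside 13.2% and 17.4% of all genes. Crot and Acsl1, of fatty acid handling, had differences of -0.60 ± 0.19 and 0.83 ± 0.19 (adjusted p = 0.133 and 0.0651).

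Mturn (chromosome 6, 54681624 to 54703851), encoding maturin, had the smallest p of all autosomal genes. It stood at 97.4, 99.3 and 80.9 CPM in sham females, 129, 134 and 122 CPM in injured females, 133, 126 and 134 CPM in sham males, and 43.97, 48.03 and 56.8 CPM in injured males. Injured males were below every other library, and sham females below the other 2 groups, so the fitted change was -1.40 in males and 0.47 in females (difference -1.87 ± 0.18, adjusted p = 0.00328). Inpp5j, encoding an inositol polyphosphate phosphatase, stood at 12.5, 14.4 and 11.7 CPM in sham females, 27.8, 27.5 and 33.4 CPM in injured females, 24.6, 17.4 and 19.97 CPM in sham males, and 9.51, 10.5 and 11.2 CPM in injured males. Here injured males lay below and the injured females above their shams (difference -2.19 ± 0.24, adjusted p = 0.00328). Ipcef1, encoding a protein that binds cytohesins, followed the same order at lower levels, 11.6, 10.9 and 11.1 CPM in injured females and 1.65, 1.43 and 2.28 CPM in injured males (difference -3.19 ± 0.41, adjusted p = 0.00698). Slc6a20b, a member of the family of sodium-coupled amino acid transporters, stood at 127, 109 and 153 CPM in injured males and 287 to 409 CPM in the rest (difference -1.14 ± 0.21, adjusted p = 0.0338). Of 25 tested amino acid transporters 1 was called above 0 (Slc3a2) and 1 below (Slc6a20b), and of 24 organic ion transporters 1 below (Slco3a1). The shares over all genes were 0.383% above 0 and 0.479% below. The medians of these lists were -0.27 and -0.54. Without injured male replicate 3 the counts were 3 above and 9 below for amino acid transporters, and 1 and 8 for organic ion transporters, beside 13.2% and 17.4% of all genes.

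Another set of genes was high in sham males, and the excess over females was smaller after injury. In Agps, Degs2, Odc1 and Slco3a1 injured males were still higher than injured females, by 1.26, 1.69, 0.85 and 2.08 on the log2 scale (adjusted p = 0.00062, 6.9e-05, 0.0045 and 1.3e-05). Agps (chromosome 2, 75832177 to 75931350), encoding the peroxisomal enzyme that starts ether lipid synthesis, stood at 81.6, 52.5 and 63.9 CPM in sham females, 59.6, 68.1 and 61.2 CPM in injured females, 615, 534 and 615 CPM in sham males, and 149.6, 147 and 154 CPM in injured males. Sham males were far above all others and injured males intermediate, while both female groups overlapped. The sham difference between males and females was 3.16 (adjusted p = 2.9e-06), and the difference in injury response -1.90 ± 0.22 (adjusted p = 0.00341). Odc1 (chromosome 12, 17544794 to 17551505), encoding ornithine decarboxylase, the first enzyme of polyamine synthesis and a known androgen target, stood at 679, 623 and 720.0 CPM in sham females, 555, 554 and 787 CPM in injured females, 3142, 2959 and 2528 CPM in sham males, and 1075, 1121 and 1227 CPM in injured males. Injured males remained above all females, but below every sham male (difference -1.24 ± 0.22, adjusted p = 0.0332). Frzb, encoding a secreted Wnt antagonist, stood at 76.5, 70.6 and 61.2 CPM in sham males, 17.9997, 15.9 and 15.5 CPM in injured males and 7.82 to 13.1 CPM in females (difference -2.30 ± 0.26, adjusted p = 0.00341). Degs2, encoding a sphingolipid desaturase and hydroxylase, stood at 12.4, 9.45 and 10.2 CPM in sham females, 18.8, 20.2 and 19.4 CPM in injured females, 123, 116 and 128 CPM in sham males, and 67.9, 67.7 and 53.4 CPM in injured males. It moved in opposite directions in the fitted values of both sexes, -0.96 in males and 0.87 in females, of which the male change passed (adjusted p = 0.00217) and the female one did not (adjusted p = 0.0589). The difference was -1.83 ± 0.20 (adjusted p = 0.00328).

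Nudt19, encoding a peroxisomal coenzyme A hydrolase, stood at 908, 857 and 854 CPM in sham males, 189, 186 and 384 CPM in injured males and 160.3 to 188 CPM in females. Replicate 2 of the injured males was within the female range, replicate 1 just above it and replicate 3 far above it (difference -1.87 ± 0.33, adjusted p = 0.0331, and -2.31 without replicate 3). Slc5a8, encoding a sodium-coupled monocarboxylate transporter, stood at 411, 414 and 367 CPM in sham males, 75.1, 62.8 and 132 CPM in injured males and 122 to 136 CPM in females (difference -2.17 ± 0.31, adjusted p = 0.0161). It is listed among female-biased kidney genes, whereas in these libraries sham males were higher than sham females by 1.63 on the log2 scale. Papss1, encoding the enzyme that makes the sulfate donor PAPS, stood at 215, 177 and 229 CPM in sham males. Injured males were at 121, 111 and 110.1 CPM, sham females at 87.9, 94.1 and 87.4 CPM and injured females at 121, 122 and 127 CPM. The difference was -1.32 ± 0.17 (adjusted p = 0.00676). Tmem178, encoding a membrane protein, stood at 63.5, 53.99 and 69.04 CPM in sham males and 19.95, 22.6 and 27.9 CPM in injured males. Sham females were at 14.6, 16.4 and 9.43 CPM and injured females at 30.9, 26.1 and 20.8 CPM. The difference was -2.35 ± 0.32 (adjusted p = 0.0122). Slco3a1, an organic anion transporter, was highest in sham males too, yet injured males at 223, 199 and 186 CPM stayed far above females at 30.3 to 50.2 CPM (difference -0.88 ± 0.17, adjusted p = 0.0439).

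**Figure D3:**
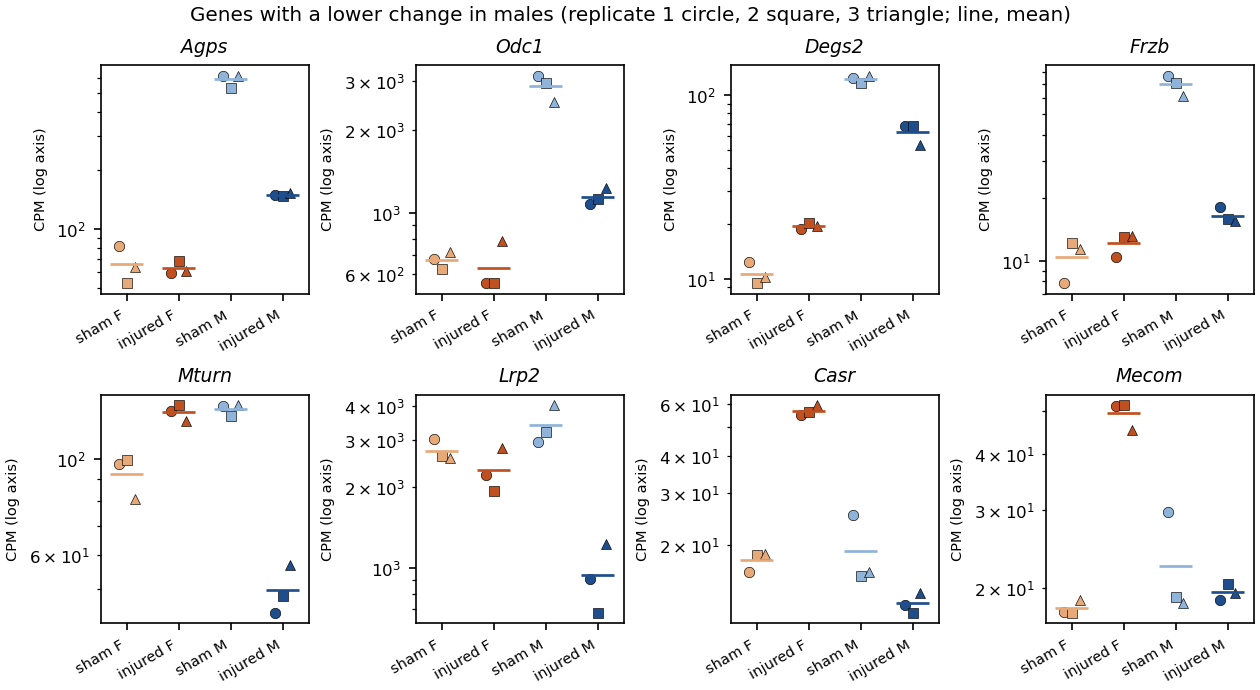
CPM per library on log axes for 8 genes with a difference below 0, drawn as in the plot of positive genes. Agps, Odc1, Degs2 and Frzb are highest in sham males, Mturn and Lrp2 lowest in injured males, and Casr and Mecom highest in injured females.

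On the list of male-biased kidney genes 3 of 27 were called, Odc1, Hsd3b4 and Nudt19, all below 0 (0.479% of all genes), and 7, all below 0, without injured male replicate 3 (17.4% of all genes), with a list median of -0.52; Hsd3b4 was in fact lower in sham males than in sham females here (male minus female -1.02 on the log2 scale, adjusted p = 0.00279). The median sham difference of that list, male minus female, was 4.40, and after injury it was 3.03. Kap, a classic androgen-driven gene, stood at 18464, 18726 and 15388 CPM in sham males and 18622, 19045 and 4253 CPM in injured males, with a difference of 0.58 ± 0.90 (adjusted p = 0.748). Replicate 3 of the injured males held much less Kap than its mates. Among 21 female-biased genes 1 was called above 0 (Hdc) and 1 below (Slc5a8), beside 0.383% and 0.479% of all genes, and the list median was -0.30. Without that library 4 were called above 0 and 5 below (13.2% and 17.4% of all genes). Prlr, encoding the prolactin receptor, stood at 126, 116 and 81.6 CPM in sham females and 2.57, 2.29 and 4.75 CPM in sham males, with a difference in injury response of 0.75 ± 0.83 (adjusted p = 0.640) that turned to -0.76 without injured male replicate 3. Hdc, encoding histidine decarboxylase, stood at 70.9, 128 and 81.2 CPM in sham females, 25.5, 46.8 and 28.8 CPM in injured females, 1.07, 1.40 and 0.758 CPM in sham males, and 20.5, 14.5 and 1.34 CPM in injured males. It was highest in sham females and near 1 CPM in sham males, while injured males spread widely (difference 4.95 ± 1.00, adjusted p = 0.0469, and 5.48, adjusted p = 2.1e-05, without replicate 3).

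Hdc is also a mast cell gene. Of the 9 mast cell markers 3 passed the filter on low values, Hdc, Kit and Tpsab1. Tpsab1 passed it through the injured males, with 866 reads there and 32 in injured females. The mean of these 3 genes is therefore raised in injured males by the choice of members. On the log2 scale relative to all libraries that mean was -0.13, 0.03 and -0.73 in sham females, 0.64, 0.82 and 0.84 in injured females, -1.51, -1.83 and -2.47 in sham males and 2.22, 1.89 and 0.24 in injured males. Tpsab1 encodes a tryptase of mast cells, and both sham groups held 0 reads of it. It stood at 0.183, 0.198 and 0.3002 CPM in injured females and 7.33, 7.52 and 5.09 CPM in injured males. With no read in either sham group, edgeR could not estimate its difference in injury response, so its p carries no information. Kit, encoding the stem cell factor receptor, had a difference of -1.82 ± 0.86 (adjusted p = 0.261). Of these 3 markers DESeq2 called 2 above 0 (4.78% of all genes), and limma 2 above and 1 below (17.2% and 22.1%). Without injured male replicate 3, edgeR again called Hdc alone, above 0 (13.2%). Given how Tpsab1 passed the filter, these counts only describe the members. Of the other 6, Fcer1a and Mcpt4 had no read in any library, and Cma1, Cpa3, Tpsb2 and Ms4a2 had 1, 3, 13 and 24 reads over all 12 libraries. The part of mast cells in the Hdc values was not tested.

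Several negative genes were highest in injured females, as was the mean level of thick ascending limb and distal markers, given below. Casr (chromosome 16, 36493696 to 36562141), encoding the calcium-sensing receptor of the thick ascending limb, stood at 16.2, 18.5 and 18.7 CPM in sham females, 54.8, 56.3 and 59.5 CPM in injured females, 25.1, 15.6 and 16.2 CPM in sham males, and 12.5, 11.8 and 13.7 CPM in injured males. Injured females were more than 2 times above every other library, and injured males just below all others. Its change was 1.67 in females (adjusted p = 0.0267) and -0.58 in males (adjusted p = 0.0451), with a difference of -2.26 ± 0.26 (adjusted p = 0.00341). Mecom (chromosome 3, 29951296 to 30548008), encoding a zinc finger transcription factor, stood at 17.7, 17.6 and 18.8 CPM in sham females, 51.5, 51.7 and 45.4 CPM in injured females, 29.6, 19.1 and 18.5 CPM in sham males, and 18.7, 20.4 and 19.4 CPM in injured males. Again injured females were set apart from 9 overlapping libraries (difference -1.66 ± 0.25, adjusted p = 0.0192). Kcnj1, encoding the potassium channel ROMK, stood at 266, 249 and 241 CPM in injured females and 24.1, 22.3 and 59.1 CPM in injured males, with shams at 77.8 to 135 CPM (difference -2.61 ± 0.46, adjusted p = 0.0331). Aqp3, encoding a water channel of the collecting duct, stood at 45.1, 45.96 and 29.97 CPM in sham females, 127, 113 and 86.9 CPM in injured females, 172, 98.6 and 64.3 CPM in sham males, and 43.7, 45.8 and 51.3 CPM in injured males. Its groups were not separated, as sham males ranged over more than 2 times (difference -2.68 ± 0.44, adjusted p = 0.0264).

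The marker levels beside these genes were as follows. The mean of 12 markers of the thick ascending limb and distal tubule, on the log2 scale relative to all libraries, was -0.04, 0.05 and -0.02 in sham females, 1.04, 1.13 and 0.98 in injured females, -0.15, -0.72 and -0.35 in sham males and -0.43, -0.28 and -1.22 in injured males. Injured females were highest in each library, and 2 of the 12 markers were called, Kcnj1 and Casr, both below 0 (0.479% of all genes). Once injured male replicate 3 was left out, 5 were called, all below 0 (17.4% of all genes), while DESeq2 called 4 below 0 (3.24%) and limma 1 above and 6 below (17.2% and 22.1%). The 15 collecting duct markers stood at -0.65, -0.82 and -1.83 in sham females, 1.06, 1.03 and 1.07 in injured females, 1.42, 0.38 and -1.48 in sham males and -0.08, 0.15 and -0.25 in injured males. Sham males here spanned nearly the whole range, and 1 of the 15 was called, Aqp3, below 0 (0.479% of all genes). The list median of -2.68 was far from the -0.09 of all genes. Of these 15, 8 were called without injured male replicate 3, 7 by DESeq2 and 10 by limma, all below 0, beside 17.4%, 3.24% and 22.1% of all genes. No marker on these lists was at 0 across a whole group, and the defining thick ascending limb genes Umod and Slc12a1 held at least 731 and 148 CPM in every library. Neither was called: their differences were -0.85 ± 0.58 and -2.06 ± 0.63 (adjusted p = 0.423 and 0.127). Umod had a positive fitted injury change in both sexes, 1.19 in males and 2.04 in females. Without injured male replicate 3, Slc12a1 was called (-1.77, adjusted p = 0.0445) and Umod was not (-0.53, adjusted p = 0.478). Proximal tubule markers were 0.25, -0.08 and -0.16 in sham females and -0.39, -0.45 and -0.27 in injured females. In males they were 0.47, 0.58 and 0.78 after sham and -0.11, -0.35 and -0.27 after injury. The distal marker mean, which itself includes Casr and Kcnj1, was also used as a covariate. That fit called 4641 of 17743 genes. In it the differences were -2.11 for Casr, -1.30 for Mecom, -3.96 for Kcnj1 and -2.43 for Aqp3, and all 4 were called. A fit with that covariate and without injured male replicate 3, an alternative chosen after seeing the data, called 386 genes (2.07%). Kcnj1 was among them (-2.21, adjusted p = 0.0230), while Casr (-1.39, adjusted p = 0.1299), Mecom (-0.70, adjusted p = 0.464) and Aqp3 (-1.58, adjusted p = 0.404) were not. As the covariate is built partly from these genes, the part of other segments in these differences was not tested.

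**Figure D4:**
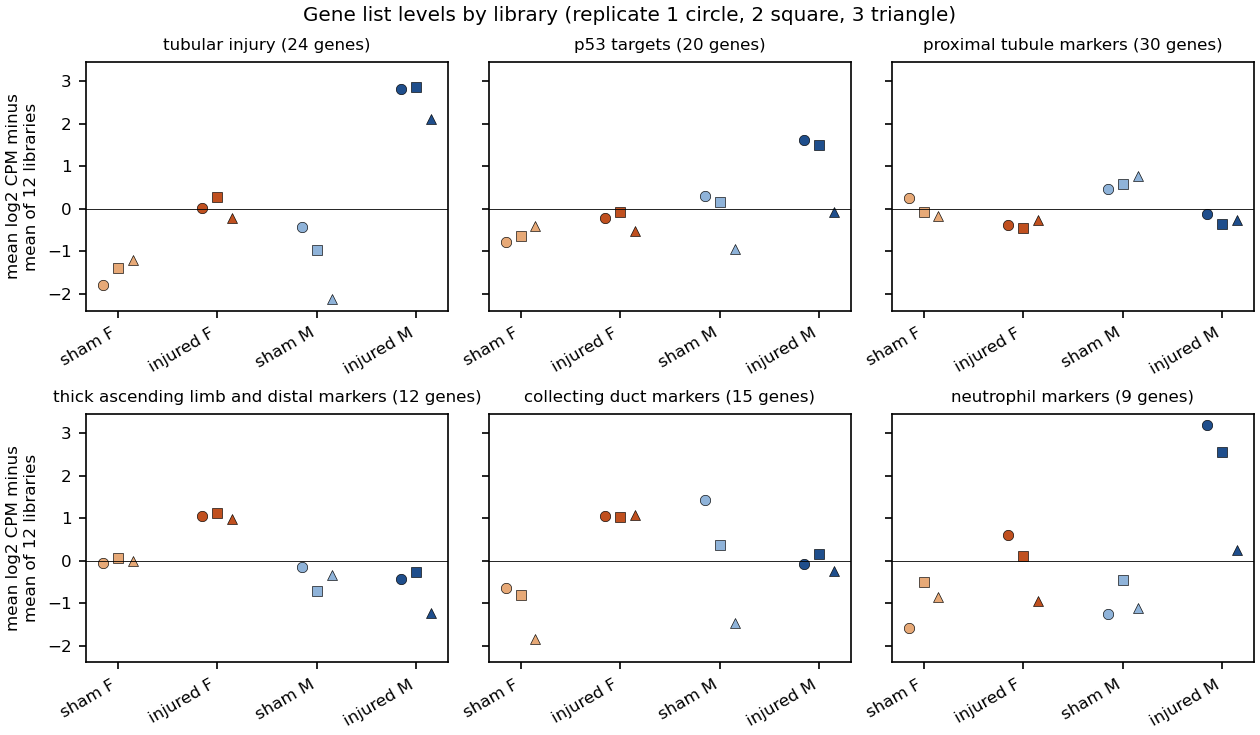
Mean log2 level of 6 gene lists in each of the 12 libraries, relative to the mean of all 12, with replicates 1, 2 and 3 as circle, square and triangle. Tubular injury genes are highest in injured males (2.11 to 2.85), distal markers in injured females (0.98 to 1.13), and injured male replicate 3 lies below its mates for injury, p53, distal and neutrophil genes. The neutrophil mean covers only members that passed the filter on low values, which may raise it in injured males.

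Further genes of the pattern high in injured females were of low abundance. Slc2a13, encoding a proton-coupled myo-inositol transporter, stood at 6.37, 8.81 and 6.52 CPM in injured females and 1.17 to 4.53 CPM in all other libraries (difference -3.21 ± 0.58, adjusted p = 0.0332). Lrrc66, encoding a leucine-rich repeat protein, stood at 16.9, 19.3 and 10.7 CPM there and 2.01, 2.21 and 2.21 CPM in injured males (difference -2.94 ± 0.55, adjusted p = 0.0357). In 11 negative genes sham females were below all others. Gvin1, a large interferon-inducible GTPase with close relatives in the genome, had no read in the sham females and stood at 2.62, 5.13 and 3.52 CPM in injured females, at least 138.0-fold higher against a floor of 3 reads over the group, or 0.0272 CPM, which covers counting error only. In males it stood at 20.5, 3.29 and 19.4 CPM in shams and 26.7, 12.5 and 7.37 CPM after injury. Cdk1, the mitotic kinase, and Slc26a7, an anion exchanger, were named after their values were seen. Cdk1 had 1 read over the sham females and 141 over the injured females, a ratio of 118 with a 95% counting interval from 20.9 to 4699.9, while males stood at 0.814, 0.357 and 0.758 CPM in shams and 0.771, 0.975 and 0.940 CPM after injury. Slc26a7 stood at 0.216, 0.711 and 0.192 CPM in sham females and 3.40, 4.93 and 6.18 CPM in injured females, and its sham males ranged widely, at 9.41, 4.55 and 0.961 CPM. Of 30 tested cell cycle genes Cdk1 was the single one called, below 0 (0.479% of all genes), and the list median was 0.05. When injured male replicate 3 was left out, 2 were called above 0 and 3 below (13.2% and 17.4% of all genes).

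Inflammatory, stress and matrix lists had no called member with all 12 libraries. For counts at an unadjusted p under 0.05, the background was 1804 genes above 0 and 1736 below, of 17743. For the 30 tested chemokine and NF-kB genes edgeR called 0, with 7 above 0 at an unadjusted p under 0.05, 5 called by DESeq2 (4.78% of all genes) and 8 by limma with library weights (17.2%), all above 0. Nfkb1, a subunit of NF-kB, had a difference of 1.41 ± 0.32 (adjusted p = 0.0636), and Tnfrsf12a, the receptor of TWEAK, one of 2.68 ± 0.68 (adjusted p = 0.0818). In the fit without injured male replicate 3, 8 of the 30 were called, all above 0, beside 13.2% of all genes. Of the 27 tested genes of the integrated stress and unfolded protein response edgeR called 0, with 10 above 0 and 1 below at an unadjusted p under 0.05; DESeq2 called 3 above and 1 below (4.78% and 3.24% of all genes), and limma 10 above and 5 below (17.2% and 22.1%). Psat1, of serine synthesis, had a difference of 2.31 ± 0.51 (adjusted p = 0.0585) and Xbp1, a transcription factor of the unfolded protein response, one of 1.45 ± 0.45 (adjusted p = 0.132). Without replicate 3 the counts of this list were 11 above 0 and 5 below, beside 13.2% and 17.4% of all genes. Of the 27 tested matrix and TGF-beta genes edgeR called 0, with 4 above 0 and 1 below at an unadjusted p under 0.05, and 6 and 1 called without that library (13.2% and 17.4% of all genes); DESeq2 called 1 above 0 (4.78%), and limma 7 above and 1 below (17.2% and 22.1%). On the log2 scale relative to all libraries, neutrophil markers stood at 3.18, 2.56 and 0.25 in injured males and 0.59, 0.12 and -0.95 in injured females. Sham females stood at -1.58, -0.50 and -0.84 and sham males at -1.26, -0.45 and -1.12. Of the 14 markers 9 passed the filter on low values, which a high level in a single group can meet. Their mean may therefore be raised in injured males by the choice of members. Of those 9 edgeR called 0, with 5 above 0 at an unadjusted p under 0.05, 0 called by DESeq2 and 1 above 0 by limma (17.2% of all genes) and by edgeR without injured male replicate 3 (13.2%). S100a8, a defining neutrophil gene, was at 9.62, 4.95 and 0.595 CPM in injured males and at most 0.956 CPM elsewhere. Their part in the injury list was not tested.

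The remaining metabolic and immune lists had few called members. Here too the background at an unadjusted p under 0.05 was 1804 genes above 0 and 1736 below, of 17743. The 26 genes of the TCA cycle and respiratory chain had a median of -0.06, and edgeR called 0 of them, with 3 below 0 at an unadjusted p under 0.05; DESeq2 called 1 below 0 (3.24% of all genes), and limma 4 in each direction (17.2% above and 22.1% below). The fit that left out injured male replicate 3 called 2 above 0 and 4 below (13.2% and 17.4%). The member with the smallest p, Idh2, encoding mitochondrial isocitrate dehydrogenase, had a difference of -0.70 ± 0.14 (adjusted p = 0.0507). Among 13 gluconeogenesis genes Glud1, encoding glutamate dehydrogenase, was the single one called, above 0 (0.383% of all genes). Glud1 stood at 748, 658 and 663 CPM in sham males, 1290.5, 1093 and 1007 CPM in injured males and 681 to 919.7 CPM in females (difference 0.94 ± 0.18, adjusted p = 0.0409). On that list 3 were called in each direction without injured male replicate 3 (13.2% above and 17.4% below among all genes). Pck1, the rate-setting enzyme of that pathway, had a difference of 0.79 ± 0.30 (adjusted p = 0.179). On the list of immediate early genes the injury change had a median of 0.98 in males and 1.31 in females, and edgeR called 0 of 28, with 1 above 0 and 1 below at an unadjusted p under 0.05; DESeq2 called 0, limma 3 above and 7 below (17.2% and 22.1% of all genes), and edgeR without injured male replicate 3 called 3 above 0 (13.2%). All 8 tested MHC class II genes went uncalled by edgeR, with 4 below 0 at an unadjusted p under 0.05, and DESeq2, limma and edgeR without injured male replicate 3 each called 1 below 0 (3.24%, 22.1% and 17.4% of all genes); the median was -1.09. Cd74, the invariant chain of this complex, stood at 392, 191 and 282 CPM in sham males and 77.6, 70.4 and 21.1 CPM in injured males, against 16.6 to 46.3 CPM in females (difference -1.63 ± 0.61, adjusted p = 0.182).

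**Figure D5:**
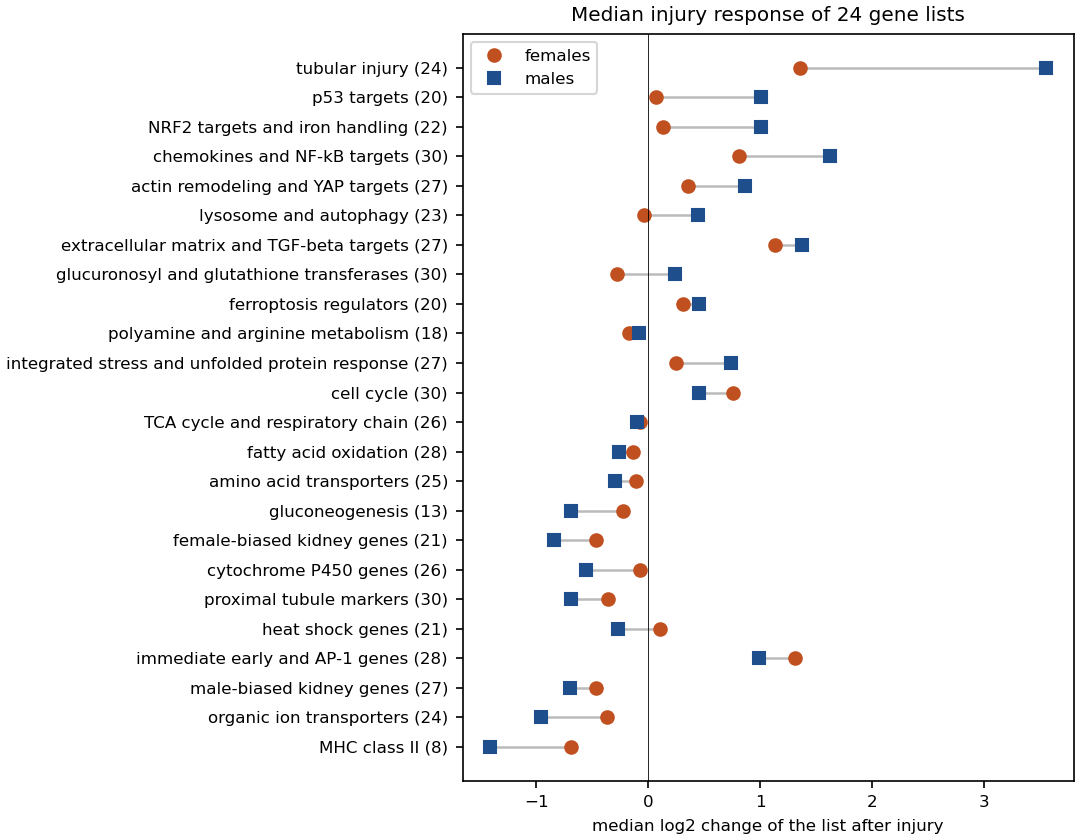
Median log2 injury change of 24 gene lists in females (circles) and males (squares), ordered by the median male minus female difference, with the number of tested genes in brackets. The gap is widest for tubular injury genes, at 1.36 in females and 3.55 in males; lists share members, and no test was made of the medians.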

How the data were processed

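Poly-A mRNA libraries of microdissected tubules were sequenced on an Illumina NextSeq, per the labels' protocols. Per the submitters' processing notes, the authors quantified transcripts with Salmon 0.13.1 on GRCm38; the deposited files hold estimated counts (expected counts, not normalized), TPM (abundance scaled within a library) and effective lengths, a further deposited column in bases. TPM and effective lengths were used only as weights and lengths in the length offsets. The authors' own comparison tables were not used here.

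Estimated counts were summed per gene, the 2 technical libraries of sham male replicate 3 added, and sums rounded. Of 53392 genes 53355 were found in GENCODE M21, which gave positions. Depth was 32592517 to 47176088 estimated reads per library. The 12 libraries were fitted in edgeR 4.0.16 (R 4.3.3; TMM, filterByExpr with minimum count 10 and minimum total 15, 1 mean per group, quasi-likelihood F-test, 8 residual degrees of freedom, biological coefficient of variation 0.392). Benjamini-Hochberg adjustment covered all 18369 genes tested, with calls made where the adjusted p was below 0.05. Standard errors were taken as the absolute log2 difference over the square root of F. The script was tested on simulated data with known changes. Marker levels are mean log2 CPM (prior count 2) of a list's tested genes minus the mean over the libraries.

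Named genes had a mean of at least 5 CPM in a group and were the 12 smallest p and 4 largest differences in each direction among called protein-coding genes, up to 4 members per list described, and 12 fixed genes (Havcr1, Lcn2, Spp1, Lrp2, Slc34a1, Cdkn1a, Odc1, Kap, Prlr, Umod, Casr, Mecom); others are marked as named after their values were seen. CT010467.1 is one of these. The comparison, the 33 gene lists (9 of cell types) and the tests were chosen with earlier results of these data known, and several lists share members. Alternatives were RLE scaling, no low-count filter, DESeq2 1.42.0, limma 3.58.1 voom with library quality weights, length offsets, the distal marker mean as a covariate, a replicate block, either technical library alone, adjustment over autosomal genes alone, and each library left out in turn; the covariate with injured male replicate 3 left out, and replicate 3 of 3 groups left out together, were added after seeing the data.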

Additional observations from a re-analysis of the deposited data

Results flagged for a closer look

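The rule that marks a result for a closer look was a difference between the sexes in the injury change, tested as the difference itself, and 153 autosomal genes met it. Among the genes named in the text 29 had a difference above 0 on the log2 scale: Adra1b (8.10), Gsta1 (6.01), Lrp8 (5.55), Hdc (4.95), Gm10639 (4.16), Plin2 (4.02), Mlkl (4.00), Nek6 (3.47), Ctsl (3.26), Gsta2 (3.24), Spp1 (3.08), Xdh (2.98), Steap1 (2.71), Syt12 (2.34), Gsto1 (2.34), Rhoc (2.34), Tpm4 (1.96), Cstb (1.93), Gstm5 (1.91), Mvp (1.84), Tagln2 (1.67), Rras (1.65), Itga6 (1.49), Tgm2 (1.49), Dap (1.49), Srxn1 (1.46), Slc3a2 (1.04), Ctsb (1.01), Glud1 (0.94). Another 36 had a difference below 0: Gvin1 (-10.20), Cdk1 (-5.88), Slc26a7 (-5.58), Slc2a13 (-3.21), Ipcef1 (-3.19), Lrrc66 (-2.94), Aqp3 (-2.68), Kcnj1 (-2.61), Ido2 (-2.59), Tmem178 (-2.35), Frzb (-2.30), Casr (-2.26), Inpp5j (-2.19), Slc5a8 (-2.17), Esr1 (-2.09), Gm10681 (-2.01), Amacr (-1.95), Erbb4 (-1.94), Agps (-1.90), Nudt19 (-1.87), Mturn (-1.87), Degs2 (-1.83), Gal3st1 (-1.82), Gm4450 (-1.68), Mecom (-1.66), Lrp2 (-1.61), Hsd3b4 (-1.59), Acmsd (-1.54), Acox2 (-1.43), Kl (-1.42), Papss1 (-1.32), Odc1 (-1.24), Slc6a20b (-1.14), Tpmt (-1.12), Pecr (-1.02), Slco3a1 (-0.88). Injured male replicate 3 stood apart in many of them, and each was also called without it. The value of Gvin1 is a fitted size only, as its sham females held no read.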

How the results depend on the processing

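The count of called genes moved with nearly every choice. With all 12 libraries 153 were called, 68 above 0 and 85 below. RLE scaling gave 150, adjustment over autosomal genes alone 154, and the technical libraries of sham male replicate 3 alone 114 and 156. No low-count filter gave 386 (204 above, 182 below), DESeq2 1424 (849, 575), limma with library weights 6972 (3050, 3922), length offsets 54 (25, 29), the distal marker covariate 4641 (2129, 2512), and the covariate without injured male replicate 3, added after seeing the data, 386 (143, 243), of which 47 were among the 153. Leaving out replicate 3 of the injured males, injured females and sham males together, also added after seeing the data, gave 5638 (2511, 3127). Leaving out 1 library at a time gave 19 to 5712, 9 to 2471 above 0 and 9 to 3241 below. With the replicate number as a block (replicate block) 53 were called (27, 26); same-numbered samples correlated in their deviations at -0.07 to 0.18, with 2 of 18 pairs above 0.1 and 5 of 12 libraries closest to their own number, so the numbers were not taken to pair samples.

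None of the 65 called genes named here changed sign in any alternative run. RLE, no filter, DESeq2 and limma with weights each kept 64 of them called, length offsets 32, the distal covariate 62, the replicate block 36, and the covariate without injured male replicate 3, 27; without that library alone, and without replicate 3 of the 3 groups, all 65 stayed called. Of 87 named genes that were not called, 65 became called without it. Signs turned, in genes that were not called, for Prlr (-0.39 with limma weights, -2.63 with the distal covariate, -0.76 without injured male replicate 3, and -0.76 to 1.15 over the 12 fits that leave out 1 library, and -0.51 without replicate 3 of the 3 groups). With the distal covariate they turned for Cd74 (0.82), Dnajb1 (0.16), Gsta3 (-0.21), H2-Ab1 (0.83), Kit (0.11), Slc34a1 (0.25) and Umod (0.85). With the covariate and without that library they turned for Cd74 (0.67), Dnajb1 (0.12), H2-Ab1 (0.78), H2-DMa (0.19), Kit (0.091), S100a8 (-1.46) and Umod (0.56). The cause was not tested. Depth limits genes near 1 CPM, such as Adra1b and Cdk1, where a few reads set the sham level; 3 libraries per group limit the rest.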

Other observations

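Further called genes, named here after their values were seen, touch hormone signaling, cell death and peroxisomal and tryptophan metabolism. Esr1, encoding estrogen receptor alpha, stood at 5.44, 4.79 and 4.26 CPM in sham females, 5.17, 5.57 and 6.54 CPM in injured females, 21.1, 25.5 and 21.1 CPM in sham males and 6.27, 3.97 and 8.71 CPM in injured males. Sham males were thus highest and injured males were in or near the female range (difference -2.09 ± 0.37, adjusted p = 0.0331). Kl, encoding klotho, the co-receptor for FGF23, stood at 319, 266 and 379 CPM in injured males and 583 to 973 CPM in all other libraries (difference -1.42 ± 0.27, adjusted p = 0.0380). Mlkl, encoding the executioner of necroptosis, stood at 9.18, 11.7 and 2.78 CPM in injured males and at most 0.837 CPM elsewhere (difference 4.00 ± 0.78, adjusted p = 0.0403). Xdh, encoding xanthine oxidoreductase, a source of uric acid and superoxide, stood at 88.6, 64.3 and 26.3 CPM in injured males and 6.24 to 12.8 CPM in the rest (difference 2.98 ± 0.49, adjusted p = 0.0270).

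Acox2 and Amacr, peroxisomal enzymes of branched-chain fatty acid and bile acid side chain oxidation, had differences of -1.43 ± 0.21 and -1.95 ± 0.32 (adjusted p = 0.0161 and 0.0264), with sham males highest for Amacr at 437, 404 and 449 CPM and injured males at 73.5, 74.3 and 145 CPM. Of tryptophan breakdown, Ido2 stood at 12.4, 12.3 and 8.47 CPM in sham males and 1.49, 0.666 and 1.94 CPM in injured males. Females were at 6.18 to 11.8 CPM in both states (difference -2.59 ± 0.49, adjusted p = 0.0380). Acmsd stood at 191, 259 and 208 CPM in sham males and 54.6, 48.8 and 80.5 CPM in injured males. Sham females were at 359, 332 and 319 CPM and injured females at 280, 262 and 284 CPM. For Acmsd the difference was -1.54 ± 0.26 (adjusted p = 0.0271). Erbb4, encoding a receptor of the EGF receptor family, was highest in injured females, at 25.7, 29.6 and 23.4 CPM, against 6.83 to 12.8 CPM elsewhere (difference -1.94 ± 0.32, adjusted p = 0.0271). Beside Hsd3b4, its neighbors Gm4450 and Gm10681 had differences of -1.68 ± 0.28 and -2.01 ± 0.35 (adjusted p = 0.0270 and 0.0321); all 3 are similar genes that can share reads.

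Immediate early genes, which respond within minutes to handling as well as to injury, varied within groups. Their mean log2 level relative to all libraries was -1.53, -1.06 and -0.96 in sham females, 0.33, 0.53 and -0.54 in injured females, 0.85, 0.63 and -1.82 in sham males and 1.82, 1.51 and 0.24 in injured males. Replicate 3 was lowest in the last 3 of these groups, and these are the samples numbered 7, 8 and 9 in the titles. All sham females lay below the mean of the libraries and bear higher numbers still. Whether the numbers mark batches is not given in the sources used here.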
